A study of Medicago truncatula with 4 samples.

Results

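The genes described here belong to the CLAVATA pathway, by which plant cells perceive CLE peptides. They were chosen from the deposited annotation table by name: a symbol containing SUNN, CLV, CRN, BAM or RDN, or a description naming CLAVATA1, CLAVATA2, coryne, super numeric nodules or root determined nodulation, with the CLAVATA3-like ligands left out. The rule found 5 genes of 52709, and these are *MtCLV2*, *MtCRN*, *MtRDN1*, *MtRDN2* and *MtRDN3*. It found 1 receptor (*MtCLV2*), 1 receptor partner (*MtCRN*) and 3 peptide-modifying enzymes, so the group is wider than receptors and holds no CLV1-type receptor kinase. Only 3772 of the 52709 genes have a symbol in the deposited annotation. Neither this rule nor the keyword lists below can find a gene by name where the annotation does not name it. The expression levels came from RNA-seq of polyA RNA of *M. truncatula* calli, 2 biological replicates from wildtype plants of the R108 line and 2 from R108 plants that carry the *MtWOX9-1* coding sequence inserted from the pMDC32 plasmid, an overexpression vector. Calli of both groups were grown from leaf explants on a medium with 2,4-D, a synthetic auxin, and BAP, a cytokinin, moved to the same medium without hormones for the last days, and collected on day 35. How many independent transgenic lines the overexpressing calli came from is not given in the sources used here. The age of the donor plants and the culture were the same for both groups.

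CLE peptides are short secreted signals. They are cut from larger precursors, and some of them need chains of arabinose sugars on a hydroxyproline to be fully active. In *Arabidopsis*, the peptide CLV3 is perceived in the shoot apical meristem by the receptor kinase CLV1 and, in parallel, by CLV2 together with CRN, and this perception holds the transcription factor WUS in check. In legumes the same kind of signalling limits the number of nodules: CLE peptides made in the root are perceived in the shoot by a CLV1-like receptor kinase, which in *M. truncatula* is SUNN.

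The libraries held between 5241334 and 6666866 counts. *MtWOX9-1* (MtrunA17Chr2g0283141, with the symbol *MtWOX9b* in the deposited annotation) had 2 and 18 counts without the transgene and 7692 and 7634 with it, as the labels of all 4 libraries say. Counts were scaled by edgeR's TMM method into normalized counts, and differences were tested by edgeR's quasi-likelihood method (two-sided). A gene entered the test when its counts summed to 10 or more, which held for 24630 genes, and was called when its Benjamini-Hochberg adjusted p was under 0.05. All 5 genes passed this minimum. The smallest exact permutation p of 2 libraries against 2 is 0.333. Each p below therefore rests on a modelled spread, estimated from the gene's own replicates together with all genes. Levels are not compared between genes, since transcript lengths were not used here.

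Of the 5 genes, 2 were lower in *MtWOX9-1*-overexpressing calli (*MtCRN* and *MtRDN3*), 0 were higher, and 3 did not pass the test. Over all genes tested, 39.2% passed it in either direction and 18.9% with a lower level, so the 2 of 5 is close to the share among all genes. The same 2 genes were lower with DESeq2, where *MtRDN2* was not called (DESeq2 adjusted p = 0.42). The median log2 fold change of the 5 genes was 0.07, beside 0.04 over all genes tested. RNA was taken from whole calli, so fewer cells that express a gene and less RNA of it per cell cannot be told apart.

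**Figure D1:**
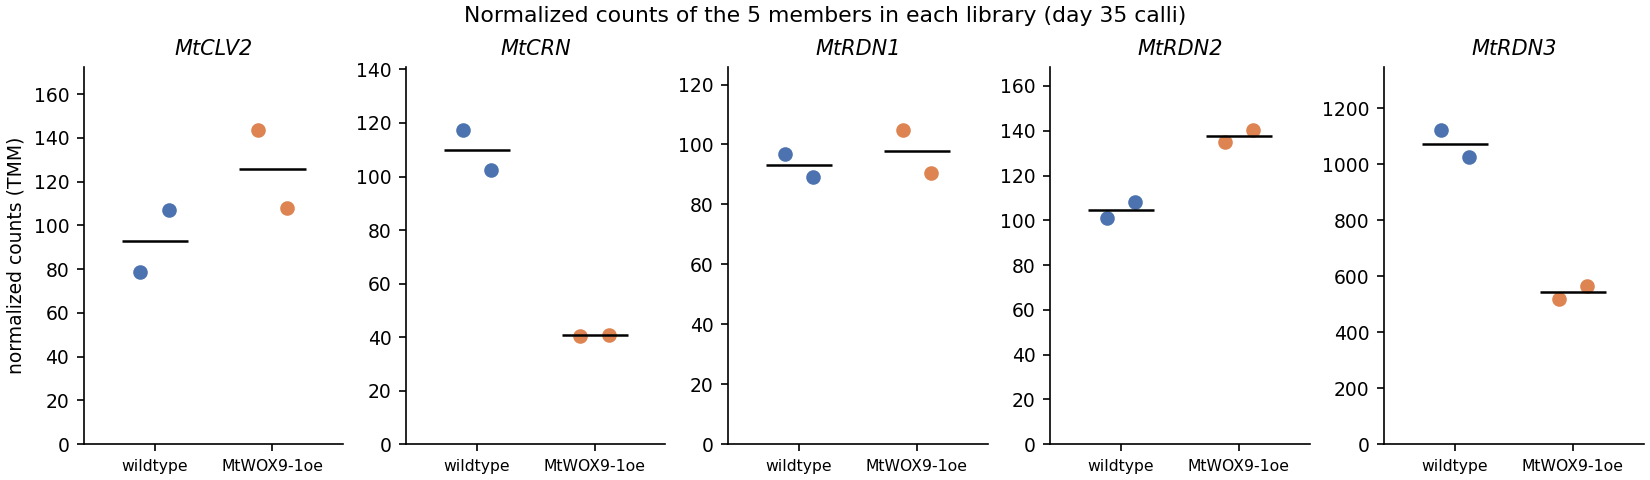
Normalized counts (vertical axes, each starting at 0) of the 5 genes in each library, with 1 point per library and a line at the group mean, for wildtype calli (blue) and *MtWOX9-1*-overexpressing calli (MtWOX9-1oe, orange). The points of *MtCRN* and *MtRDN3* lie well below those of wildtype calli, those of *MtRDN2* lie above them, and those of *MtCLV2* and *MtRDN1* touch or overlap.

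*MtCLV2* (MtrunA17Chr7g0249101, Medtr7g079550 in the older annotation, on chromosome 7 by its ID) encodes the counterpart of *Arabidopsis* CLV2, a receptor-like protein with leucine-rich repeats outside the cell and no kinase domain of its own. It had 73 and 89 counts in the wildtype libraries, against 163 and 119 in the overexpressing ones, or 78.6 and 107.1 against 143.6 and 107.7 normalized counts. Wildtype replicate 2 and overexpressing replicate 2 were at nearly the same level, and the groups were set apart only by the other libraries. The means were 92.9 ± 20.2 and 126 ± 25.3 normalized counts (SD, n = 2 each). The log2 fold change was 0.44 (edgeR adjusted p = 0.20, SE 0.24). With 1 library omitted it ranged from 0.22 to 0.68 and was not called. The 95% interval of the fold ran from 0.891 to 2.07, so neither an equal level nor a 2.07-fold higher one lies outside it.

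*MtCRN* (MtrunA17Chr7g0221431, Medtr7g020850, also on chromosome 7 by its ID) encodes the counterpart of CORYNE, a membrane protein with a kinase-like domain that in *Arabidopsis* joins CLV2 and is needed to bring it to the cell surface. It had 109 and 85 counts in the wildtype libraries, against 46 and 45 in the overexpressing ones. In normalized counts these were 117 and 102 against 40.5 and 40.7, so both wildtype libraries lay far above both overexpressing ones. The means were 109.8 ± 10.6 and 40.6 ± 0.155 normalized counts (SD, n = 2 each). The level was 2.70-fold lower in overexpressing calli, with a log2 fold change of -1.43 (edgeR adjusted p = 0.0053, SE 0.17). Of all genes tested, 74.8% had a smaller absolute log2 fold change. Leaving out any 1 library kept its log2 fold change between -1.52 and -1.33, and the adjusted p was at most 0.030.

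Since CLV2 and CRN act as partners, their counts were set against each other within each library, which needs no scaling between libraries. Per count of *MtCLV2* there were 1.49 and 0.955 counts of *MtCRN* without the transgene, but 0.282 and 0.378 with it. The lower wildtype ratio was thus 2.53-fold above the higher overexpressing ratio. In other words, *MtCRN* took 59.9% (Wilson 95% interval 52.6 to 66.7) and 48.9% (41.5 to 56.2) of the counts of both genes in wildtype replicates 1 and 2. In overexpressing replicates 1 and 2 it took 22.0% (16.9 to 28.1) and 27.4% (21.2 to 34.7). These intervals cover counting error only, and the ratio is not one of molecules, because the lengths of the transcripts enter into it. The wildtype libraries differed from each other in this ratio more than the overexpressing libraries did. With 2 libraries per group the exact permutation p of the ratio cannot fall below 0.333, and no other test of it was made. Since *MtCRN* was itself called lower, the ratio is not evidence apart from that call. The sum of both genes was 203 ± 9.52 normalized counts in wildtype and 166 ± 25.2 in overexpressing calli (SD, n = 2 each).

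**Figure D2:**
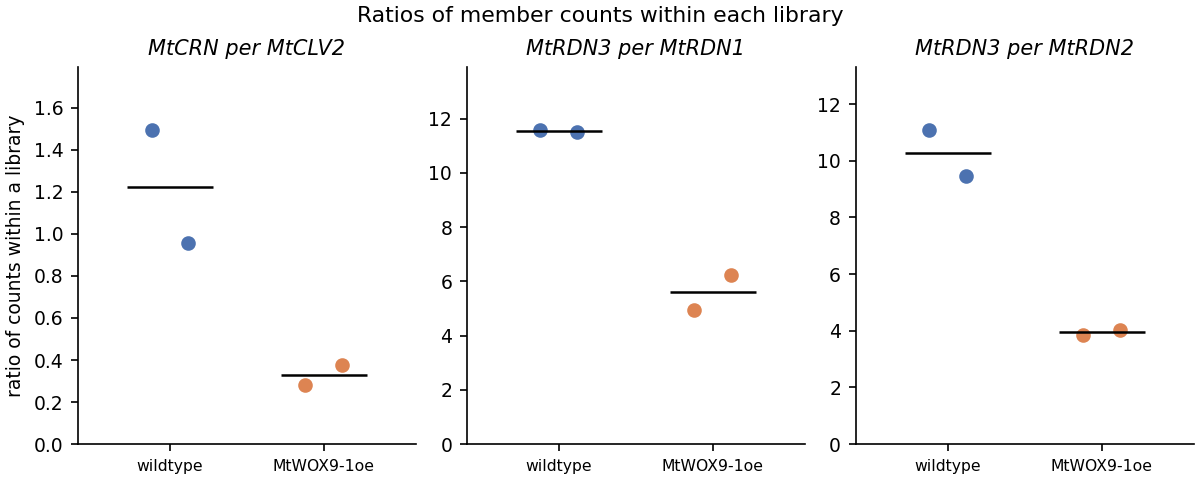
Ratio of the counts of 2 genes within 1 library (vertical axes, each starting at 0), with 1 point per library and a line at the group mean, for *MtCRN* per *MtCLV2*, *MtRDN3* per *MtRDN1* and *MtRDN3* per *MtRDN2*. In each panel both overexpressing libraries (orange) lie below both wildtype libraries (blue). Each ratio has a gene called lower (*MtCRN* or *MtRDN3*) as its numerator, so the panels are not evidence apart from those calls. The ratio of *MtRDN2* to *MtRDN1*, which holds no called gene, is not drawn.

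The 3 RDN genes encode enzymes of the hydroxyproline O-arabinosyltransferase family, which work in the Golgi and add arabinose to secreted peptides and proteins. In *M. truncatula*, *RDN1* is known from mutants with too many nodules, and its enzyme modifies the nodulation peptide MtCLE12.

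*MtRDN1* (MtrunA17Chr5g0441831, Medtr5g089520) lies at chr5:40095183-40102691 in the RefSeq annotation of MtrunA17r5.0-ANR, a gene of 7509 bases. It had 90 and 74 counts in wildtype calli, against 119 and 100 with the transgene, or 96.9 and 89.1 against 104.8 and 90.5 normalized counts. The groups overlapped, with overexpressing replicate 2 between both wildtype libraries. The means were 93.0 ± 5.54 and 97.7 ± 10.1 normalized counts (SD, n = 2 each), and the log2 fold change was 0.07 (edgeR adjusted p = 0.76, SE 0.16). The 95% interval of the fold ran from 0.787 to 1.40. Without overexpressing replicate 1 the sign turned (log2 fold change -0.037). Of the 5 genes this was the one with the smallest difference.

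*MtRDN2* (MtrunA17Chr8g0353191, Medtr8g039290) lies at chr8:14987025-14992297 in the same annotation, a gene of 5273 bases. It had 94 and 90 counts in the wildtype libraries, against 153 and 155 in the overexpressing ones. In normalized counts these were 101 and 108 against 135 and 140.3, and the groups did not overlap. The means were 105 ± 5.03 and 138 ± 3.92 normalized counts (SD, n = 2 each). This 1.31-fold difference had a log2 fold change of 0.39 (edgeR unadjusted p = 0.033, adjusted p = 0.074, SE 0.13) and a 95% interval of the fold from 1.03 to 1.67. It passed the threshold in 1 of 11 alternatives, with library size as the only scaling (log2 fold change 0.53, adjusted p = 0.036). That scaling raised the median of all genes by 0.14 on the log2 scale.

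*MtRDN3* (MtrunA17Chr1g0149621, Medtr1g012920, on chromosome 1 by its ID) had the most counts of the 5 genes, 1042 and 852 without the transgene and 590 and 625 with it. In normalized counts these were 1122 and 1025 against 519.6 and 566, so the highest overexpressing library was far below the lowest wildtype one. The means were 1074 ± 68.2 and 543 ± 32.6 normalized counts (SD, n = 2 each). The level was 1.98-fold lower in overexpressing calli, or -0.98 on the log2 scale (edgeR adjusted p = 0.0057, SE 0.12). Leaving out 1 library at a time gave log2 fold changes between -1.05 and -0.92, each with an adjusted p of at most 0.032. Of all genes tested, 65.0% had a smaller absolute log2 fold change.

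The RDN genes were also set against each other within each library, and the differences between them were not tested beyond these ratios. Per count of *MtRDN1* there were 11.6 and 11.5 counts of *MtRDN3* in wildtype calli but 4.96 and 6.25 in overexpressing calli. Per count of *MtRDN2* there were 11.1 and 9.47 against 3.86 and 4.03, with no overlap of the groups. Since *MtRDN3* was itself called lower, its ratios are not evidence apart from that call. The ratio of *MtRDN2* to *MtRDN1* was 1.04 and 1.22 without the transgene and 1.29 and 1.55 with it, which is a small gap beside the spread between replicates. *MtRDN3* took 85.0% (Wilson 95% interval 82.9 to 86.9) and 83.9% (81.5 to 86.0) of the RDN counts in wildtype replicates 1 and 2. In overexpressing replicates 1 and 2 its part was 68.4% (65.3 to 71.5) and 71.0% (67.9 to 73.9). The sum over the RDN genes was 1271 ± 68.7 normalized counts in wildtype calli and 778 ± 26.4 in overexpressing calli (SD, n = 2 each). Most counts in this sum were those of *MtRDN3*. The shares and the sum are of counts and not of molecules, because the lengths of the transcripts enter into them. The intervals cover counting error only.

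**Figure D3:**
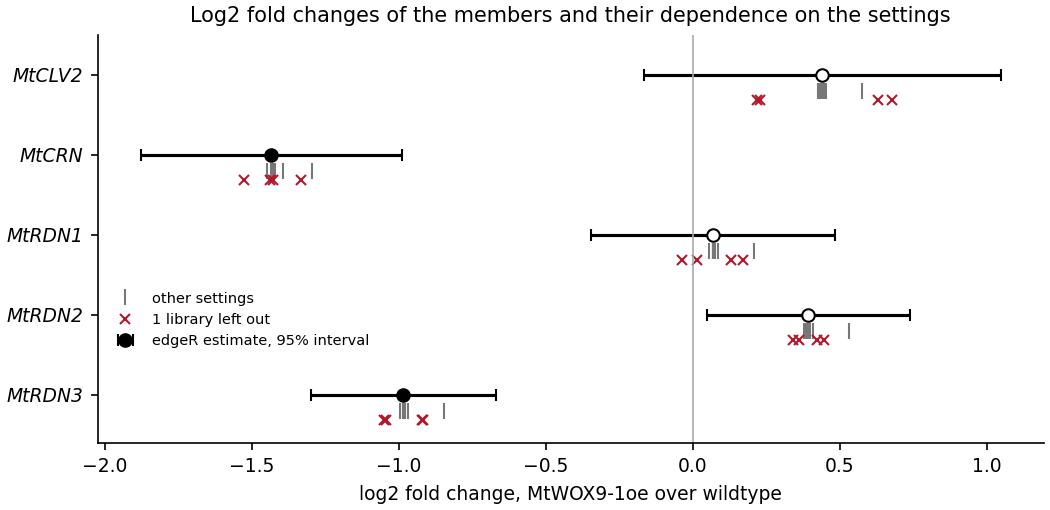
Log2 fold change of overexpressing over wildtype calli (horizontal axis) for each of the 5 genes, with the edgeR estimate and its 95% interval (filled circles, adjusted p under 0.05), and below it the values under other settings (grey ticks) and with 1 library left out (red crosses). *MtCRN* and *MtRDN3* stay below 0 throughout, with lowest and highest values of -1.52 and -1.29 for *MtCRN* and of -1.05 and -0.84 for *MtRDN3*.

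In normalized counts 4 of the 5 genes had groups that did not overlap, all but *MtRDN1*. Over all genes tested this held for 75.1%, so non-overlap of 2 against 2 libraries says little by itself here.

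A row named *MtSUNN* is present in the count table, although the annotation table gives it no symbol and it is therefore outside the rule. It had 0 counts in all 4 libraries, which allows up to between 0.450 and 0.572 CPM, at 3 counts per library and for counting error only. Its ID is not of the MtrunA17 form, which 95 rows share, and 47 of these had 0 counts in all libraries. How reads were assigned where such a row overlaps another gene model is not given in the sources used here, so the 0 counts do not show that the receptor is absent. RefSeq places *SUNN* at chr4:34866744-34870592.

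The CLE peptides are the ligands of the pathway. The deposited annotation describes 41 CLE genes, of which 22 had 0 counts in all 4 libraries, 9 were under the minimum and 10 were tested. Of those tested, 3 were higher and 2 lower in overexpressing calli, with a median log2 fold change of 0.78. This median is midway between *MtCLE17* (0.02) and *MtCLE28* (1.54), and since *MtCLE28* had only 0, 2, 2 and 6 counts it is no measure of size. The ligands known to act through SUNN in nodulation, *MtCLE12*, *MtCLE13* and *MtCLE35*, had 0 counts in every library (they are named for this role, with their counts known). Among the 4 tested CLE genes with the most normalized counts, *MtCLE06* was lower (log2 fold change -0.80, edgeR adjusted p = 0.012, but 0.053 without overexpressing replicate 1) and *MtCLE08* higher (log2 fold change 2.20, edgeR adjusted p = 0.0043). *MtCLE05* had 308 and 163 counts without the transgene and 187 and 191 with it, a log2 fold change of -0.65 (edgeR adjusted p = 0.12). Wildtype replicate 1 stood apart from the other libraries, and the value turned on the wildtype library kept: it was -0.22 (adjusted p = 0.43) without wildtype replicate 1 and -0.97 (adjusted p = 0.013) without wildtype replicate 2. *MtCLE03* had 21 and 24 counts against 30 and 28, a log2 fold change of 0.01 (adjusted p = 0.98).

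The WOX transcription factors lie downstream of CLE signalling in the best known cases. The annotation names 13 of them, of which 6 had 0 counts throughout and 7 were tested. Of these 2 were higher, the introduced *MtWOX9-1* among them, and 4 were lower. This is 85.7% called, beside 39.2% over all genes tested, and the call of *MtWOX9-1* was fixed by the design. *MtWOX13a* fell from 570 and 500 counts to 183 and 157 (log2 fold change -2.00, edgeR adjusted p = 0.0026). *MtWOX4* (-4.60, adjusted p = 0.0041) and *MtWOX13b* (-1.14, adjusted p = 0.014) were lower too. With 1 library left out, these values stayed at or below -1.92, -3.92 and -0.94, in this order. *MtWUS*, the counterpart of the target of CLV3 signalling in *Arabidopsis*, was also lower (edgeR adjusted p = 0.023). It went from 6 and 12 counts without the transgene to 0 in both libraries with it. At so few counts its fitted value is no measure of size, and it was not followed under the alternatives.

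The list of other CLE receptors and co-receptors matched 1 gene, *MtSERK*, which encodes a co-receptor kinase of the somatic embryogenesis receptor kinase family. It had 553 and 506 counts in wildtype calli, against 672 and 584 with the transgene, or 602 ± 9.62 against 560.2 ± 44.7 normalized counts (SD, n = 2 each). The log2 fold change was -0.10 (edgeR adjusted p = 0.52), with a 95% interval of the fold from 0.755 to 1.15, and its sign turned with library size as the only scaling. *MtFLS2*, the flagellin receptor and the only other leucine-rich repeat receptor kinase so described, had 77 and 63 counts against 120 and 93, a log2 fold change of 0.26 (adjusted p = 0.32). The list of downstream phosphatases (poltergeist and kinase-associated protein phosphatase) matched 0 genes.

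The list for the systemic control of nodule number held 22 genes, of which 11 had 0 counts throughout, 6 were under the minimum and 5 were tested. Of these 1 was higher and 2 were lower in overexpressing calli (60.0% called, beside 39.2% over all genes tested). *MtTML1* encodes an F-box protein that acts in the root downstream of SUNN to limit nodulation. It had 341 and 331 counts in wildtype calli, against 669 and 442 with the transgene, or 367 and 398 against 589 and 400.1 normalized counts. Overexpressing replicate 1 alone stood apart. The log2 fold change was 0.37 (edgeR adjusted p = 0.22), and it was 0.07 (adjusted p = 0.76) without overexpressing replicate 1 and 0.62 (adjusted p = 0.049) without overexpressing replicate 2. *MtTML2* had 0 counts in all 4 libraries, the transcription factor gene *MtNIN* had 1 count in all, and *MtCRA2*, which encodes the receptor of CEP peptides, had 2.

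The CEP peptides are secreted signals that favour nodulation. *MtCEP14* had 15 and 12 counts without the transgene and 137 and 108 with it, so both overexpressing libraries were far above both wildtype ones. Its level was 7.08-fold higher (log2 fold change 2.82, edgeR adjusted p = 0.0029, SE 0.23). *MtCEP16* fell from 55 and 65 counts to 18 and 31 (log2 fold change -1.64, adjusted p = 0.019), and without overexpressing replicate 1 the adjusted p was 0.055. *MtCEP17* fell from 264 and 129 counts to 119 and 66 (log2 fold change -1.42, adjusted p = 0.044). This last call held in 6 of 11 alternatives. It was lost without wildtype replicate 1, without overexpressing replicate 1 or without overexpressing replicate 2, where the adjusted p was 0.12, 0.058 and 0.14. Without wildtype replicate 1 the log2 fold change was -0.92. CEP genes of this list thus moved in opposite directions.

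**Figure D4:**
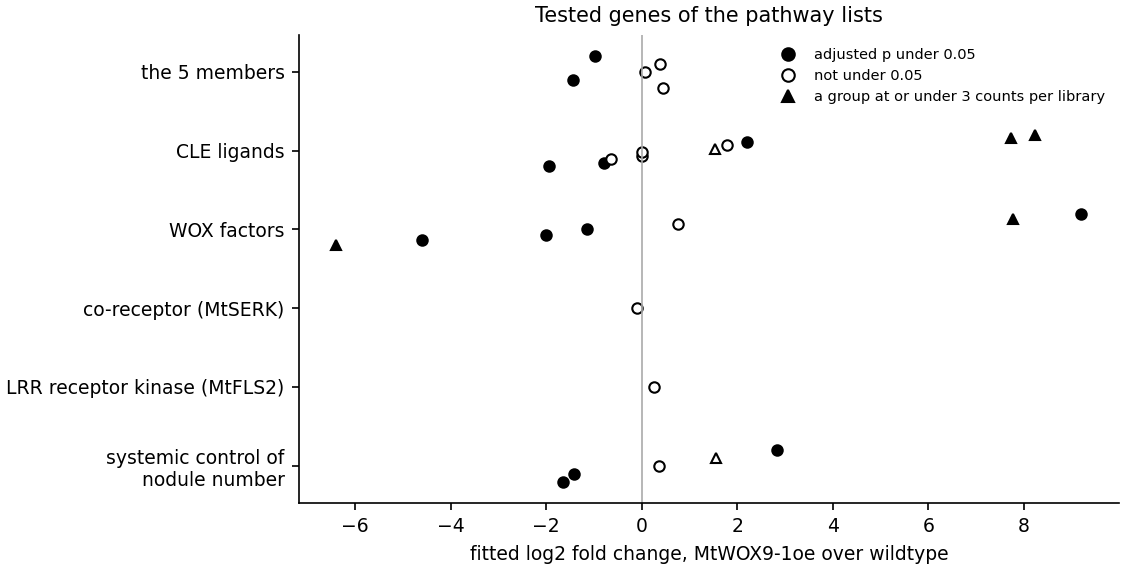
Fitted log2 fold change of overexpressing over wildtype calli (horizontal axis) for the 5 genes and for the tested genes of the pathway lists (rows), 1 symbol per gene. Filled symbols mark genes called by edgeR (adjusted p under 0.05), and triangles mark genes with at most 3 counts in each library of 1 group, whose fitted value is no measure of size. The 5 genes lie between -1.43 and 0.44, inside the range of the CLE and WOX genes.

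Genes listed by keyword for other cell types differed between the groups as well. Of 10 genes with root cap in their description, 10 were tested and 10 were higher. Their summed level was 32.3 and 189 normalized counts in wildtype and 8967 and 13682 in overexpressing calli. Most of them carry an MtRC symbol and were matched by these words alone, so they are not shown to mark root cap cells. Of 6 genes on the root apex list 5 were higher (sum of the list 72.1 and 378 against 3727 and 3040.3). These 5 were matched by the word plethora, and *MtPLT4* among them is also named *MtBBM*. The other gene, *MtWOX5*, was not called (0 and 9 against 0 and 20 counts), so the list does not by itself show root apex cells. The embryo regulator gene *MtABI3* was higher too. The share called was 100% on the root cap list and 83.3% on the root apex list, beside 39.2% over all genes tested. The keywords for the shoot meristem matched *MtWUS* and KNOX genes, 11 in all, of which 10 were tested, 3 were higher and 6 lower. Most of their counts came from *MtKNOX3*, *MtKNOX4*, *MtKNOX5* and *MtKNOX9*, which belong to class II of the family and do not mark the meristem, so no summed level is given. *MtKNOX1* was higher (0 and 0 against 5 and 5 counts) and *MtKNOX2* lower (41 and 31 against 16 and 16 counts), so the list does not show a common direction of shoot meristem genes. The cambium marker *MtWOX4* was lower. The keywords for leaf photosynthesis matched 133 genes, of which 132 were genes of the chloroplast genome without a description and the other was *MtPAO*, an enzyme of chlorophyll breakdown, so the list is not a set of photosynthesis markers. Of these 96 were tested, 17 were higher and 3 lower. This is 20.8% called, beside 39.2% over all genes tested, and no summed level is given for this list either. Of 11 leghemoglobin genes, which mark nodules, 9 had 0 counts throughout and 1 was tested and not called. The part of differences in cell types in the levels of *MtCRN* and *MtRDN3* was not tested.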

How the data were processed

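For 4 libraries of *M. truncatula* calli the authors deposited raw counts of reads for each gene, as whole numbers. Their processing notes name Trimmomatic, HISAT2, StringTie and DESeq. Versions, strand settings and the treatment of reads with several matches are not given in the sources used here. Genes carry MtrunA17r5.0-ANR identifiers, from the genome of the A17 line, whereas the plants were R108. A further deposited table holds a normalized signal per library and the authors' mean, log2 fold changes and p-values, none of which was used. Only its symbols and descriptions were used, and 0 per-sample columns of counts were left unused.

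The count model was fitted by edgeR 4.0.16 in R 4.3.3, with TMM scaling and the genotype as its only term, over all 4 libraries. Genes with at least 10 counts in total were kept. To obtain normalized counts, each library was rescaled from its own effective size to the average effective size. Standard errors were taken from the test statistic, and 95% intervals from its degrees of freedom. A count of 0 was given the same upper limit of 3 counts in every library, and library depth set only its value in CPM. The fits were tested on simulated data with a smaller and a larger size of change, the larger added after the smaller had been run. edgeR called few of the genes given the smaller change, a log2 fold change of 1, when few genes changed in all, so a gene that was not called is not shown to be unchanged.

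The alternatives were DESeq2 1.42.0, its size factors in edgeR, scaling by library size alone, filterByExpr or a count minimum of 1 as filters, a replicate block, prior count 2, stricter calls (adjusted p under 0.01, or log2 fold changes beyond 1 in size), and leaving out every library once. Counts out of 11 alternatives leave out the stricter calls. They include prior count 2, which alters fold changes only and repeats the adjusted p of the main fit. The genes and lists were chosen with earlier results of these data known. Every gene found by the rule is named. From each keyword list at most the 4 tested genes with the most normalized counts are named, except *MtWUS*, the genes at or near 0 counts and the markers, which were chosen with their values known. *MtNINJA*, which shares only letters with *MtNIN*, was left out. No genes were ranked by likeness, because with 4 libraries very many share any such pattern. RefSeq positions were matched by synonym and found for 2 of the 5 genes. No sequences were analysed here.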

Additional observations from a re-analysis of the deposited data

How the results depend on the processing

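*MtCRN* and *MtRDN3* were lower, with an adjusted p under 0.05, in 11 of 11 alternatives, and *MtCLV2* and *MtRDN1* passed the threshold in 0 of 11. The count of 2 called genes fell to 1 with an absolute log2 fold change over 1, since *MtRDN3* lay at -0.98. *MtRDN2* passed with library size as the only scaling (0.53). With 1 library left out the log2 fold change of *MtRDN1* lay between -0.037 and 0.17 and that of *MtCLE03* between -0.16 and 0.20. With filterByExpr that of *MtCLE03* was -0.00064, and with library size as the only scaling that of *MtSERK* was 0.033. Over all genes, 9645 were called (4985 higher and 4660 lower), 3930 at an adjusted p under 0.01, and between 5631 and 8323 with 1 library left out. The cause was not tested. With the replicate number as a block 6668 genes were called, and *MtCRN* (log2 fold change -1.43) and *MtRDN3* remained among them. The labels do not say that a number marks a shared batch, and the deviations of same-numbered libraries had a correlation of -0.02 over 24630 genes, so the numbers were not taken as pairs. With 2 libraries a group and about 100 counts per library, differences such as that of *MtRDN2* lie near the limit of what these libraries can show.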
